A study of Homo sapiens with 6 samples.

Results

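DEAD and DEAH box RNA helicases are ATP-driven enzymes that unwind or remodel RNA and RNA-protein complexes at each stage of an RNA's life, from transcription and splicing through export and ribosome assembly to translation and decay. They are named after amino acids of a conserved motif in the ATPase core. DEAD box enzymes mostly open short duplexes locally, whereas DEAH box enzymes move along a strand and often need a G-patch protein as cofactor. The 55 genes described here were chosen by symbol alone, as those named DDX or DHX followed by a number and, for DDX, at most 1 letter, out of 25343 genes counted. DDX58 and DHX58, cytosolic RNA sensors, were set apart. No measured value entered that choice, but the family was picked with the response of these libraries already known. Fold changes and calls below therefore describe the family and are not independent evidence that it stands out.

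The cells were A375, an established human melanoma line, used without genetic change. They were given 50 nM panobinostat, an inhibitor of histone deacetylases, for 24 h, or the same volume of PBS as vehicle. Bulk RNA was sequenced from 3 panobinostat and 3 vehicle libraries, with 32293283 to 36201208 and 34738362 to 38944399 counts. Levels are CPM, reads scaled to a common library size with TMM factors, and calls are edgeR quasi-likelihood tests with a Benjamini-Hochberg adjusted p under 0.05 over all 15499 genes tested. No label says that the replicates were separate cultures, so p-values reflect variation among these libraries alone, which may be technical. Melanocyte-lineage genes were present in both groups (SOX10 at 368 CPM with panobinostat and 813 CPM in vehicle) but were called lower with panobinostat. Log2 changes of panobinostat over vehicle were -1.14 for SOX10, -0.69 for MITF, -3.09 for ERBB3, -2.65 for S100B and -0.83 for PAX3. The leukocyte genes PTPRC and CD3E were at or below 0.0572 CPM. PECAM1, EPCAM and COL1A1, markers of endothelium, epithelium and fibroblasts, averaged 2.91, 0.690 and 56.1 CPM with panobinostat and 0.0981, 0.0624 and 1.001 CPM in vehicle. Their part in the helicase values was not tested.

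RNA of the family was lower with panobinostat. Of the 55 genes 49 had enough counts to be tested. Of these, 37 (75.5%) fell and 5 (10.2%) rose, against 41.0% lower and 41.8% higher among all genes tested, and 7 were not called. The median log2 fold change was -0.37, which is 77.6% of the vehicle level, against 0.01 for all genes tested. Among the 10817 tested genes with a mean level of 5.43 to 535 CPM, the span of all but 1 of the 49, 48.8% fell, 36.2% rose and the median was -0.12. Most changes were small. In 34 of the 49 the change was under 1.5-fold, beside 7634 of all 15499 genes tested and 6187 of the 10817. In the family 5 (10.2%) fell at least 2-fold and 0 rose that far, against 11.7% and 18.9% of all genes tested. Among the 10817 these shares were 11.9% and 9.50%. The panobinostat and vehicle ranges were apart in 44 of 49 (89.8%), against 83.4% of all genes tested. Among DDX genes 29 of 34 fell and 2 rose, and among DHX genes 8 of 15 fell and 3 rose, a difference between the subfamilies that was not tested.

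**Figure D1:**
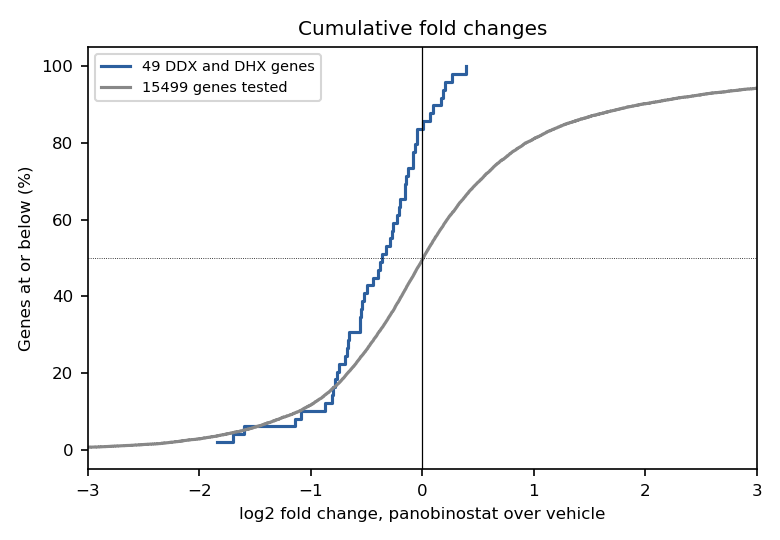
Cumulative share of genes (vertical axis, percent) at or below each log2 fold change of panobinostat over vehicle (horizontal axis), for the 49 tested DDX and DHX genes and for all 15499 genes tested; values beyond 3 either way are not drawn. The curve of the family crosses 50% at -0.37 and that of all genes at 0.01.

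Together the 55 genes took 0.554%, 0.561% and 0.562% of the counts in panobinostat replicates 1, 2 and 3, and 0.703%, 0.705% and 0.707% in vehicle replicates 1, 2 and 3. Each panobinostat library lay below each vehicle library. Summed over the family this was 5560 ± 50.6 CPM with panobinostat and 7091 ± 51.0 CPM in vehicle (SD, n = 3 each). DHX9, DDX21, DDX5, DDX6 and DHX15 made up 52.0% of that difference. In bulk RNA, fewer cells expressing a gene and less RNA per cell cannot be told apart.

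**Figure D2:**
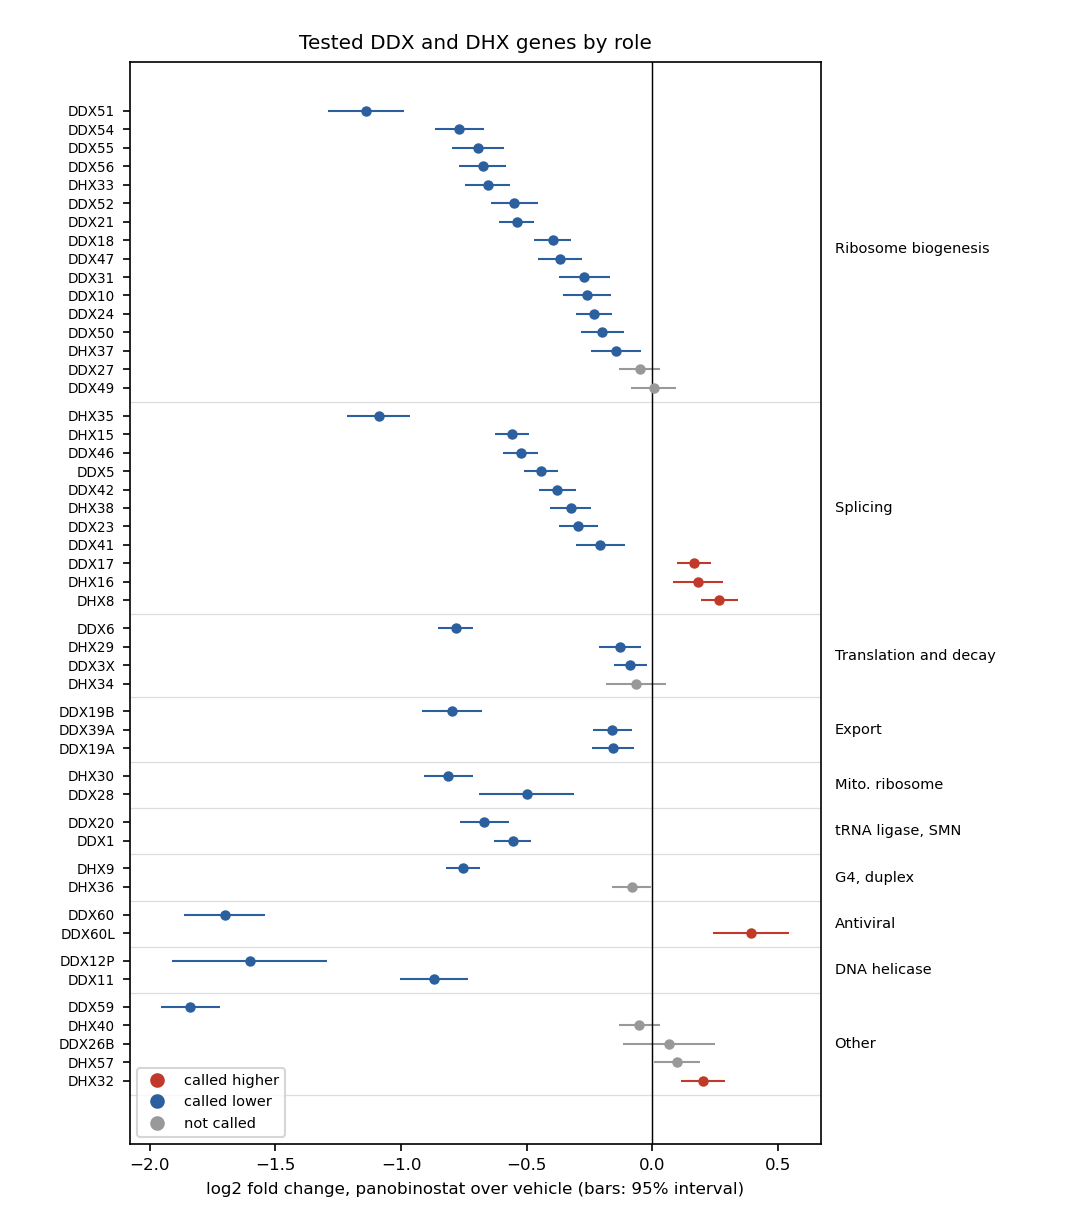
Log2 fold change of panobinostat over vehicle (points) with 95% intervals (bars) for the 49 tested genes, grouped by role and coloured by call. The largest fall is that of DDX59 at -1.84 and the largest rise that of DDX60L at 0.39.

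Helicases of ribosome biogenesis, which remodel pre-ribosomal RNA in the nucleolus, fell in 14 of 16 cases (87.5%) and rose in 0. Among all genes tested 41.0% were lower and 41.8% higher. The median log2 change of these helicases was -0.38. DDX51, needed for maturation of large-subunit rRNA, fell most. It stood at 9.09, 8.75 and 8.88 CPM with panobinostat and 20.8, 20.5 and 17.7 CPM in vehicle, a log2 change of -1.14 ± 0.08 (SE; edgeR adjusted p = 3.29e-10). The panobinostat libraries were all below the lowest vehicle library and close to each other, while vehicle replicate 3 was the lowest of its group. DDX54, DDX55, DDX56 and the DEAH box gene DHX33, also nucleolar factors, followed with log2 changes of -0.77, -0.69, -0.67 and -0.66. DDX52 changed by -0.55, DDX18 by -0.40, DDX47 by -0.37, DDX31 by -0.27, DDX10 by -0.26 and DDX24 by -0.23. DHX37, a factor of the small subunit, changed by -0.14, but was no longer called under upper quartile scaling (-0.024), under the filter of 5 CPM (-0.050), with a replicate block (-0.14) and without panobinostat replicate 1 (-0.13). DDX49 and DDX27 were not called. DDX49 had 85.9, 84.3 and 88.1 CPM with panobinostat and 88.7, 87.5 and 81.1 CPM in vehicle, and DDX27 had 119, 127 and 130 CPM against 131, 130 and 127 CPM. The groups overlapped in both genes, and their 95% intervals of the log2 difference ran between -0.08 and 0.09 for DDX49 and between -0.13 and 0.03 for DDX27. With no filter DDX27 was called lower (-0.094). Under upper quartile scaling (0.13) and under the 5 CPM filter (0.10) DDX49 was called higher. APOLD1 shares 36.5% of the exonic bases of DDX47 on the same strand in the GENCODE v29 annotation, so reads of the pair may have been divided between them.

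Helicases of the spliceosome and of splicing changed in both directions, with 8 of 11 (72.7%) lower and 3 (27.3%) higher, against 41.0% and 41.8% of all genes tested. Their median log2 change was -0.32. The list includes the splicing factors DDX5 and DDX17. The spliceosomal enzymes act in sequence, from recognition of the branch site to release of the spliced mRNA. DHX35, a poorly characterised spliceosomal component, had 13.2, 12.9 and 12.1 CPM with panobinostat and 28.2, 26.7 and 26.5 CPM in vehicle (log2 change -1.09 ± 0.06, edgeR adjusted p = 4.59e-11). DHX15, which takes spent spliceosomes apart, fell to 211 ± 3.34 CPM, against 311 ± 4.83 CPM in vehicle. DDX46, which acts in the first assembly of the U2 particle, fell to 194 ± 1.61 CPM, against 279 ± 6.27 CPM in vehicle. Smaller falls were those of DDX42, which binds the same particle, at -0.38, DHX38, which remodels the spliceosome for its later catalytic step, at -0.32, and DDX23, which exchanges U1 for U6 at the splice site, at -0.29. DDX41, a spliceosomal helicase also described as a DNA sensor, changed by -0.21 and was no longer called under upper quartile scaling (-0.086).

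The rises in this group were those of DHX8, DHX16 and DDX17. DHX8, which frees spliced mRNA from the spliceosome, had 190, 188 and 198 CPM with panobinostat and 160, 161 and 157 CPM in vehicle (log2 change 0.27 ± 0.04, edgeR adjusted p = 4.07e-06). DHX16, which makes the spliceosome ready for catalysis, had 65.2, 67.7 and 66.1 CPM with panobinostat and 60.7, 60.4 and 54.2 CPM in vehicle (log2 change 0.18 ± 0.05, edgeR adjusted p = 0.00309). For both genes every panobinostat library lay above every vehicle library, and in DHX16 vehicle replicate 3 was lowest. The folds were 1.20 for DHX8 and 1.14 for DHX16, so these enzymes of successive steps differed in direction from DHX38 and DHX15, a contrast between genes that was not tested.

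DDX5 and DDX17, close relatives that act as splicing factors and transcriptional coregulators, moved apart. DDX5 had 412, 421 and 422 CPM with panobinostat and 558, 560 and 587 CPM in vehicle, a log2 change of -0.44 ± 0.03. DDX17 had 439, 438 and 444 CPM with panobinostat and 400, 380 and 398 CPM in vehicle, a log2 change of 0.17 ± 0.03 (edgeR adjusted p = 0.000308). Neither gene's groups overlapped, DDX5 being low and DDX17 high with panobinostat. Within a library the ratio of DDX5 to DDX17 counts was 0.951 ± 0.0117 with panobinostat and 1.45 ± 0.0451 in vehicle (SD, n = 3 each). A ratio within a library does not depend on scaling, but it carries the lengths of both genes and is read here only between groups.

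**Figure D3:**
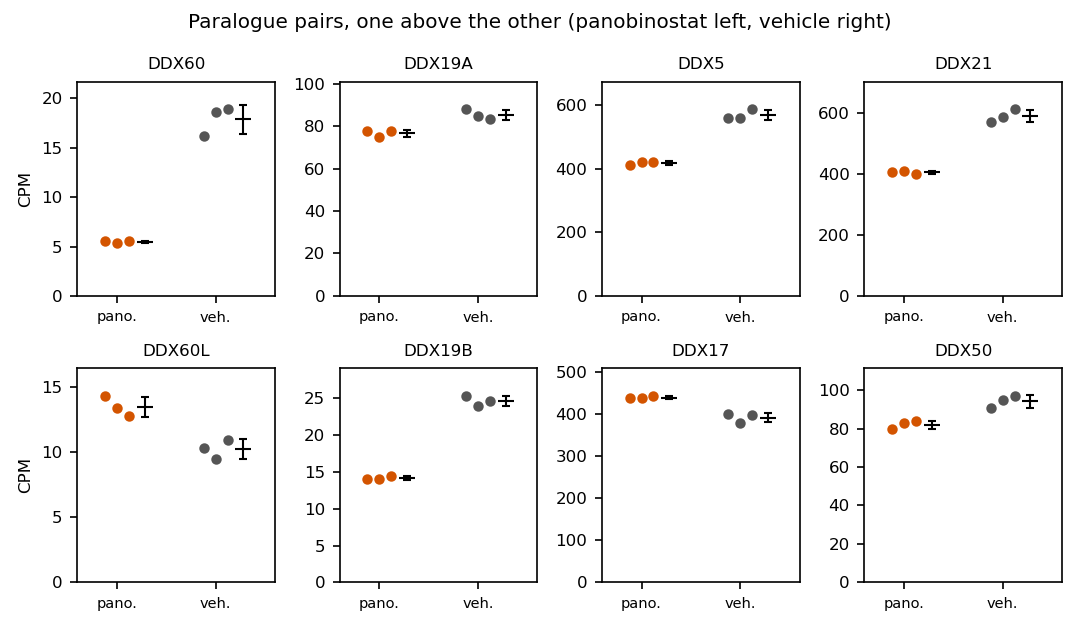
CPM per library (points) and mean with SD (black marks) for 4 paralogue pairs, each pair in a column, with panobinostat left and vehicle right and every vertical axis starting at 0. DDX60 and DDX60L, and DDX5 and DDX17, differ in direction, while DDX19A and DDX19B, and DDX21 and DDX50, are lower with panobinostat to unequal degrees.

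The other pairs with measurable counts were neighbours in the genome with 0 coding genes between them in GENCODE v29. DDX21, a nucleolar helicase that links RNA polymerase I and II transcription with rRNA processing, had 407, 410 and 402 CPM with panobinostat and 571, 589 and 612 CPM in vehicle (log2 change -0.54 ± 0.04). DDX50, its neighbour on chromosome 10, had 79.6, 82.6 and 83.7 CPM with panobinostat and 90.5, 94.8 and 96.9 CPM in vehicle (log2 change -0.20 ± 0.04), and was no longer called under upper quartile scaling (-0.079). DDX21 was thus the more reduced of the pair, and its count ratio to DDX50 was 4.96 ± 0.158 with panobinostat and 6.28 ± 0.0585 in vehicle.

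DDX19A and DDX19B lie on chromosome 16 and encode near-identical helicases that remodel mRNA at the nuclear pore. DDX19B had 13.95, 14.06 and 14.45 CPM with panobinostat and 25.3, 23.9 and 24.6 CPM in vehicle (log2 change -0.80 ± 0.06, edgeR adjusted p = 1.64e-09). DDX19A had 77.7, 74.7 and 77.6 CPM with panobinostat and 87.8, 84.8 and 83.3 CPM in vehicle (log2 change -0.15 ± 0.04). Both were lower in each panobinostat library, although DDX19A was no longer called under upper quartile scaling (-0.035) or the 5 CPM filter (-0.060). Their count ratio was 5.42 ± 0.133 with panobinostat and 3.47 ± 0.0751 in vehicle. Reads shared by the copies may have been split between them, so both levels are uncertain. For each of the 4 pairs the within-library ratios of the groups did not overlap. That gave p = 0.1 in a two-sided exact permutation test (adjusted over the 4 pairs, 0.1), the smallest value that 3 against 3 allows. These p-values only restate the lack of overlap. The levels of single genes were apart in 83.4% of all genes tested, and the share for ratios of other gene pairs was not computed.

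DDX60 and DDX60L are adjacent on chromosome 4 and are induced by interferon. DDX60 promotes antiviral signalling. It had 5.55, 5.39 and 5.54 CPM with panobinostat and 16.2, 18.6 and 18.9 CPM in vehicle, a log2 change of -1.70 ± 0.08 (edgeR adjusted p = 3.6e-12). DDX60L had 14.3, 13.4 and 12.8 CPM with panobinostat and 10.4, 9.48 and 10.99 CPM in vehicle, a log2 change of 0.39 ± 0.08 (edgeR adjusted p = 0.000155), the largest rise of the family. No panobinostat library overlapped the vehicle libraries in either gene. The ratio of DDX60 to DDX60L counts was 0.407 ± 0.0230 with panobinostat and 1.75 ± 0.202 in vehicle. Of the sensors left out of the family, DHX58 was at 1.29 ± 0.297 CPM with panobinostat and 5.71 ± 0.482 CPM in vehicle, a fall, whereas DDX58 was not called (log2 difference -0.05).

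The windows around the starts of DDX60 and DDX60L are shown because the genes are interferon-induced neighbours that differed in direction. They come from RefSeq on GRCh38.p14, run from 250 bases before to 50 bases after the start and are read 5′ to 3′ on the minus strand, at chr4:168318703-168319002 for DDX60 and chr4:168480443-168480742 for DDX60L. Capitals mark matches on either strand to GAAANNGAA, the core of the interferon-stimulated response element, a motif searched after the values were seen.
DDX60: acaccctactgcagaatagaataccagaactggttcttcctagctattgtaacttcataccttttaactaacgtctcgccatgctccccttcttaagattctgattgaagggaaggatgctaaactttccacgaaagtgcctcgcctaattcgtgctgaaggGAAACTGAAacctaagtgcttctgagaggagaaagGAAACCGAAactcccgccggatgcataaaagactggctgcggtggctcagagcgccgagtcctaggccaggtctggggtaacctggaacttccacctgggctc
DDX60L: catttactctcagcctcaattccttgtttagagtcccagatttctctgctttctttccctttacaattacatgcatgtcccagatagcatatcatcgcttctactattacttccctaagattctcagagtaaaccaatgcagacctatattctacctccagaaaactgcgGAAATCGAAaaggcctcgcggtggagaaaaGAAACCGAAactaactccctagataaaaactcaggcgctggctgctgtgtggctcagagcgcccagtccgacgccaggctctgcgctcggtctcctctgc

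Both windows held 2 matches, at bases 163 to 171 and 198 to 206 of the DDX60 window and 171 to 179 and 201 to 209 of the DDX60L window. The motif was present in the windows of 3 of 44 tested family members with an entry (6.82%), the third being DHX15, and in 9.86% of all 27305 genes of the table. The E-box CACGTG, the palindromic site that MYC-family factors bind, was found for 9 of the 44 (20.5%), against 12.3% of the 11104 tested genes with an entry and 8.77% of all genes of the table. The core CGTG, which lies within the E-box, was found for 93.2%, 84.9% and 69.7% of the same sets. The 9 were DDX5, DDX21, DDX31, DDX54, DHX32, DHX34, DHX35, DHX37 and DHX40. Of these 6 fell and 1 rose, against 75.5% lower and 10.2% higher in the family of 49. Among all genes tested 41.0% were lower and 41.8% higher. Neither the E-box share nor these calls were tested as a difference between sets. Their median log2 change was -0.27 beside -0.37 for all 49 tested.

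**Figure D4:**
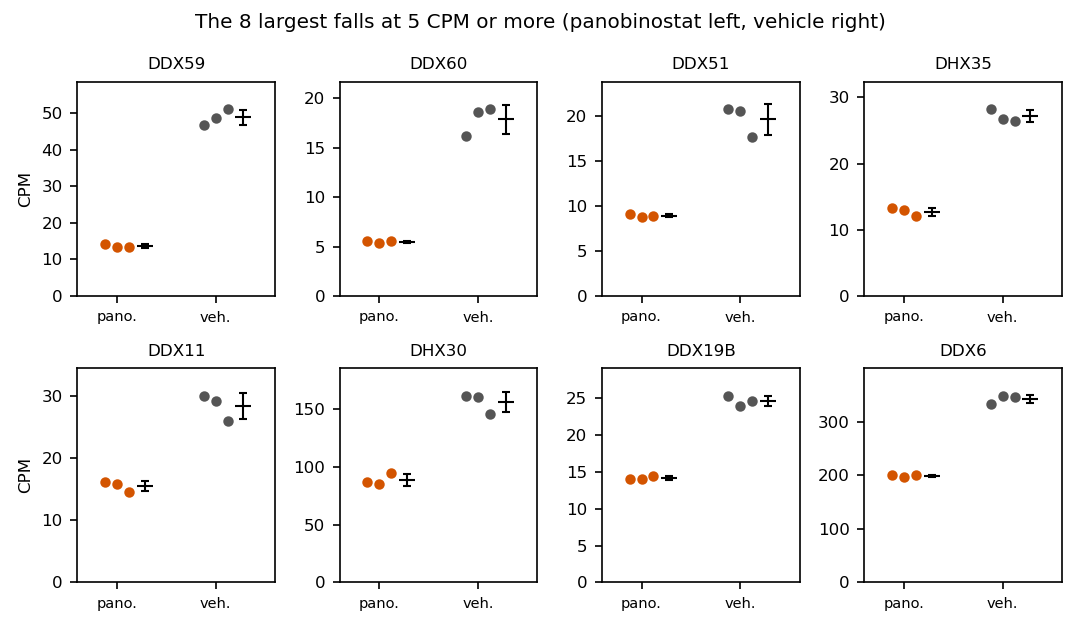
CPM per library (points) and mean with SD (black marks) for the 8 largest falls, drawn with panobinostat left and vehicle right and every vertical axis starting at 0. They were taken from family members called lower, reaching 5 CPM in either group and with groups that do not overlap. The lack of overlap in each of the 8 genes follows from that choice.

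DDX59, a helicase whose loss causes a ciliopathy of mouth, face and digits, showed the largest fall of the family. It had 14.2, 13.3 and 13.4 CPM with panobinostat and 46.7, 48.8 and 51.0 CPM in vehicle, a log2 change of -1.84 ± 0.06 (edgeR adjusted p = 1.52e-14). Panobinostat libraries were thus at 27.96% of the vehicle level, and no library of either group stood near the other group. DDX11, a DNA helicase of sister chromatid cohesion, had 16.1, 15.9 and 14.6 CPM with panobinostat and 30.0, 29.3 and 26.0 CPM in vehicle (log2 change -0.87 ± 0.07). The pseudogene DDX12P, a copy of DDX11, was at 1.43 ± 0.254 CPM with panobinostat and 4.36 ± 0.653 CPM in vehicle (log2 change -1.60 ± 0.16). Reads of these copies may have been split between them, and neither value can be assigned to 1 gene with certainty. With DDX11 and DDX12P left out, 35 of 47 (74.5%) fell and 5 (10.6%) rose, against 41.0% and 41.8% of all genes tested.

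Of the 4 tested helicases of translation and decay, DDX6, which represses translation and promotes decapping in P-bodies, changed most. It had 200, 197 and 200 CPM with panobinostat and 334, 348 and 346 CPM in vehicle, a log2 change of -0.78 ± 0.04 (edgeR adjusted p = 1.29e-12). DDX3X, which helps ribosomes load on structured mRNAs, had 520, 528 and 509 CPM with panobinostat and 543, 555 and 556 CPM in vehicle. The groups did not overlap, and the log2 change of -0.09 ± 0.03 was called (edgeR adjusted p = 0.0242), but its direction turned under upper quartile scaling (0.033) and under the 5 CPM filter (0.0076), and the call was lost with a replicate block, DESeq2, RLE or library-size scaling and without panobinostat replicate 1 or 3. DHX29, which assists scanning by the small ribosomal subunit, changed by -0.13 and was no longer called under upper quartile scaling (-0.0085), under the 5 CPM filter (-0.034) or without panobinostat replicate 1 (-0.11). DHX34, a factor of nonsense-mediated decay, was not called, at 27.96, 28.52 and 26.86 CPM with panobinostat and 31.0, 29.3 and 27.0 CPM in vehicle, with the groups overlapping. Without vehicle replicate 3 it was called lower (-0.13). Of the export helicases, DDX39A, which loads export factors on mRNA, changed by -0.16 and likewise was no longer called under upper quartile scaling (-0.039) or the 5 CPM filter (-0.065).

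The mitochondrial helicases DHX30 and DDX28, which assemble the mitochondrial ribosome, both fell. DHX30 had 86.9, 85.0 and 94.7 CPM with panobinostat and 161, 160 and 146 CPM in vehicle (log2 change -0.81 ± 0.05, edgeR adjusted p = 9.48e-11). DDX28 averaged 11.5 ± 1.73 CPM with panobinostat and 16.1 ± 1.29 CPM in vehicle, and 22.5% of its exonic bases lie opposite DUS2, so its count is uncertain where strand was not kept. DHX9, which unwinds long duplexes and resolves R-loops, fell to 320 ± 7.68 CPM, against 539 ± 6.56 CPM in vehicle (log2 change -0.75 ± 0.03). DHX36, the main G-quadruplex resolvase, had 157, 155 and 151 CPM with panobinostat and 157, 164 and 168 CPM in vehicle. Its groups nearly touched and it was not called (log2 difference -0.08, 95% interval -0.16 to -0.01, edgeR adjusted p = 0.0599), with calls as a fall with no filter on low counts and without vehicle replicate 1. DDX1, of the tRNA ligase complex, changed by -0.56 ± 0.04, and DDX20 (Gemin3), of the SMN complex that builds spliceosomal particles, by -0.67 ± 0.05.

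Among the remaining genes, DHX32, which is little characterised, had 69.0, 66.9 and 70.5 CPM with panobinostat and 58.6, 60.9 and 59.8 CPM in vehicle (log2 change 0.20 ± 0.04, edgeR adjusted p = 0.000452). Every panobinostat library lay above every vehicle library. BCCIP covers 10.4% of its exonic bases on the opposite strand. DHX57 had 74.3, 71.6 and 78.5 CPM with panobinostat and 71.4, 69.7 and 68.4 CPM in vehicle, and DHX40 had 141, 139 and 143 CPM against 139, 146 and 152 CPM. Neither was called, although the panobinostat libraries of DHX57 all lay above its vehicle libraries (edgeR adjusted p = 0.0593) and it was called as a rise in 6 of 14 alternatives. DHX40 was called as a fall with no filter (-0.095) and without vehicle replicate 1 (-0.099), and its direction turned under upper quartile scaling (0.069) and the 5 CPM filter (0.044). DDX26B, the older symbol of INTS6L, belongs to the Integrator complex and is no known helicase. It had 5.36, 5.77 and 5.54 CPM with panobinostat and 5.19, 5.10 and 5.62 CPM in vehicle, with overlapping groups and no call.

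Genes with too few counts to be tested were DDX39B, DDX3Y, and DDX4, DDX25, DDX43 and DDX53 of germ cells or cancer-testis tissue. DDX25, a testis helicase, had 9, 12 and 9 counts with panobinostat and 1, 0 and 0 counts in vehicle, a ratio of 31.9 (95% interval 5.31 to 1303, counting error alone). DDX25 entered the edgeR test in 5 of 14 alternatives, with no filter and without panobinostat replicate 1 or any single vehicle library. Where a filter was kept it passed through its panobinostat counts alone, and the 5 fits reuse the same few counts. Its calls as higher in them are therefore no further support for a rise. DDX53 summed to 14 counts with panobinostat and 6 in vehicle, DDX4 to 3 in each group, and DDX43 had 0 counts throughout. DDX39B, the partner of DDX39A in mRNA export, summed to 4 counts with panobinostat and 32 in vehicle. In GENCODE v29, 29.7% of its exonic bases are shared on the same strand with the read-through gene ATP6V1G2-DDX39B, which is listed at 0. EIF4A1, the DEAD box factor of translation initiation outside the symbol rule and singled out after its value was seen, is likewise listed at 0 in all 6 libraries and shares 29.8% of its exonic bases with SENP3-EIF4A1. No level of DDX39B or EIF4A1 is read from these counts, and the part of the shared exons was not tested.

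RNA of listed partner proteins of DEAD box helicases was mostly lower too. The list also holds proteins that bind EIF4A helicases, which lie outside the symbol rule. Among them are EIF4G2, EIF4G3, PDCD4, CASC3, MAGOH, MAGOHB and RBM8A. Of 37 tested partners of DEAD box helicases 29 (78.4%) fell and 6 (16.2%) rose, against 41.0% lower and 41.8% higher among all genes tested, with a median log2 change of -0.49. The translation regulators EIF4G2 and PDCD4 fell to 341 ± 1.57 and 60.9 ± 1.73 CPM, against 915 ± 18.9 and 180 ± 8.18 CPM in vehicle, and ALYREF, the export adaptor that DDX39A and DDX39B load on mRNA, fell to 31.4 ± 2.20 CPM, against 98.6 ± 4.12 CPM. GEMIN8, a subunit of the SMN complex with DDX20, RTCB, the catalytic subunit of the tRNA ligase complex with DDX1, and the scaffold EIF4G3 rose, by log2 changes of 0.70, 0.27 and 0.22. Within the tRNA ligase complex FAM98B and C14orf166 fell with DDX1, by log2 changes of -0.82 and -0.39, while FAM98A and C2orf49 rose with RTCB, by 0.16 and 0.26. Of the SMN complex GEMIN2, GEMIN4, GEMIN5 and GEMIN6 fell with DDX20 (-0.77, -1.51, -0.55 and -0.14), and GEMIN7 was not called (0.15). These further subunits are all those of both complexes in the list and were added after their values were seen.

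G-patch proteins, the activators of DEAH box enzymes, fell in 12 of 19 cases (63.2%) and rose in 5 (26.3%), with a median of -0.19, against the same 41.0% and 41.8%. Under upper quartile scaling 7 fell and 6 rose, as under the 5 CPM filter. With a replicate block, with no filter, or without panobinostat replicate 1, panobinostat replicate 3 or vehicle replicate 2, 3 rose. GPATCH4, RBM5 and RBM10 changed by -1.02, -0.81 and -0.67, and GPATCH11, ZGPAT and GPATCH2 by 0.75, 0.47 and 0.18. Of 8 tested helicases of the same superfamily under other symbols 5 (62.5%) fell and 1 (12.5%) rose (median -0.35), also against 41.0% and 41.8%. EIF4A2, SKIV2L2 and ASCC3 changed by -0.73, -0.35 and -0.35. SKIV2L, the helicase of the cytoplasmic exosome cofactor, rose to 118 ± 1.68 CPM, against 62.2 ± 4.17 CPM in vehicle.

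**Figure D5:**
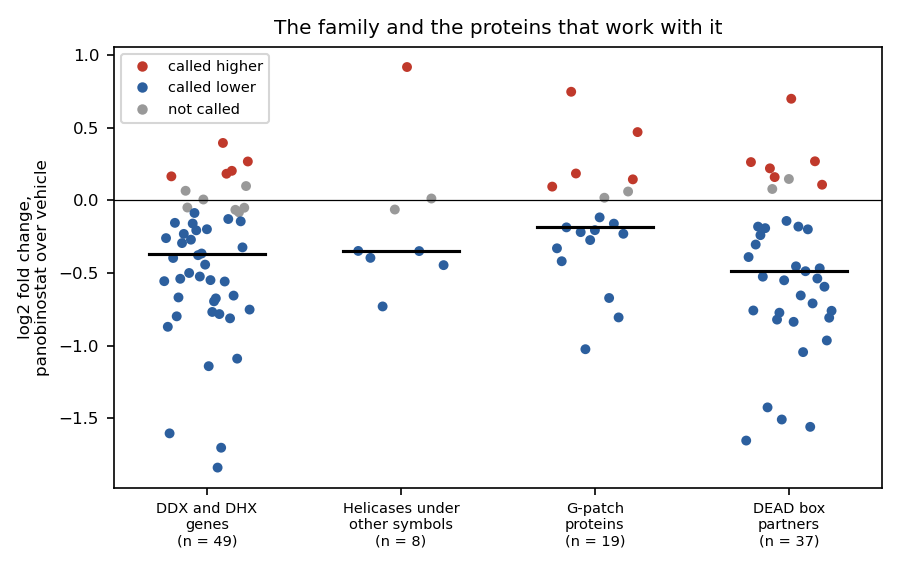
Log2 fold change of panobinostat over vehicle for each tested gene (points, coloured by call) with the median (line) in the family of 49 and in lists of 8 helicases under other symbols, 19 G-patch proteins and 37 DEAD box partners. All 4 medians lie below 0, between -0.49 and -0.19, and the highest point is SKIV2L at 0.92.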

How the data were processed

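The authors deposited whole-number counts of reads per gene symbol for 6 A375 libraries, with no normalization. STAR is named only in the name of that table, and its version, genome build, annotation and strandedness were not given in the sources used here. Samples were grouped by labelled dose, and columns were matched by title. From 25435 lines, 92 spike-in lines with 0 counts were left out. Genes were filtered with filterByExpr, scaled by TMM and tested across all genes with edgeR 4.0.16 in R 4.3.3 (quasi-likelihood F test, robust, group alone). Intervals of log2 differences are 95% normal intervals from the SE. DESeq2 1.42.0, limma 3.58.1 (voom), other scalings and filters, a replicate block and leaving out each library were alternatives. The steps were also run on simulated data in which few genes changed. That run cannot check the scaling in data such as these, where most genes are called. Replicates differed by more than sampling noise (chi-square per degree of freedom 1.95 to 9.60). Ratios with few counts have exact conditional intervals. Values per library are given for the 8 largest falls and all rises at 5 CPM or more, paralogue pairs and genes not called. The members, lists and that rule were chosen with earlier results of these data known. Protein sequences were not used here, and DDX3Y, which is Y-linked, is given no level.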

Additional observations from a re-analysis of the deposited data

How the results depend on the processing

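Over 14 alternatives 36 of the 49 tested genes kept their direction and their side of the threshold. Genes called lower numbered 30 to 39 and genes called higher 5 to 7 where the filter was kept or made stricter (48 to 50 tested). Without panobinostat replicate 1 or any single vehicle library, the count called higher includes DDX25, which adds no support. With no filter 53 were tested and 41 called lower, a count that includes DDX39B, whose level is not read here. In that fit 6 were called higher, DDX25 among them. The family's median of -0.37 was -0.25 under upper quartile scaling, -0.25 under the filter of 5 CPM in 3 libraries, -0.41 when low counts were kept, and -0.40 to -0.33 when a library was left out. Upper quartile scaling moved the median of all genes to 0.13, and relative to that median the family stood at -0.37 in both fits. Relative to all genes tested it stood at -0.24 with the 5 CPM filter and -0.53 with no filter, where other sets of genes were tested. Ribosome biogenesis genes called higher numbered 1 rather than 0 under upper quartile scaling and 1 under the 5 CPM filter. G-patch proteins called higher numbered 3 with no filter and 3 with a replicate block, and 3 to 5 when a library was left out, and those called lower 7 under upper quartile scaling and 7 under the 5 CPM filter, where 6 were called higher. Directions turned under upper quartile scaling and the 5 CPM filter for DDX3X (0.0331 and 0.00763), DDX27 (0.0706 and 0.0450), DHX34 (0.0550 and 0.0294), DHX40 (0.0692 and 0.0438) and DHX36 (0.0378 and 0.0124), and for DDX49 with no filter (-0.0381) and without panobinostat replicate 3 or vehicle replicate 3, its values running from -0.0505 to 0.0194 as each library was left out. Of these only DDX3X was called in the reported fit, and the cause was not tested. With the replicate block 35 genes fell and 5 rose, the calls of DDX3X (-0.09) and DHX37 (-0.14) being lost. Same-numbered libraries did not deviate together (correlations -0.54 to -0.25), and no library correlated best with its own number, so the numbers were not taken as pairs. At 3 counts per library, 0.0774 to 0.0928 CPM, DDX4, DDX43 and DDX53 cannot be compared further. The calls of DDX25 as higher in the 5 alternatives that tested it rest on the same few counts and add no support.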
